A study of Homo sapiens with 12 samples.

Results

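Epithelial sheets are sealed by tight junctions and are built with a distinct top and bottom. The transcripts of 9 genes that serve these functions were examined in sorted pancreatic cancer cells: *OCLN*, *MARVELD2*, *TJP1*, *TJP3*, *CGN*, *CRB3*, *LLGL2*, *RAB25* and *AP1M2*. They were taken by symbol from the deposited expression table, in which they are 9 of 23346 genes, and all 9 were above the filter on low values that left 16236 genes for testing.

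The samples came from SW1990 and CFPAC-1, established human pancreatic adenocarcinoma lines grown as monolayers. Cells of each line were stained live with GCTM-5, a mouse monoclonal antibody to a secreted and surface glycoprotein complex, and sorted by flow cytometry, with the gates set around highly positive and around negative cells. Polyadenylated RNA was sequenced from 4 groups of 3 samples: GCTM-5 negative and positive SW1990, and GCTM-5 negative and positive CFPAC-1. Staining reagents apart, no treatment is given for the cells and no altered gene, and the study's methods speak of sorts in triplicate. The groups of 1 line are therefore fractions of a single tumour line that differ in a surface antigen, and cells between the gates were not sampled. Nothing in the sources used here says that the 3 samples of a group came from separate cultures, so the p-values measure the spread between these samples, which may be technical. The measurement was bulk RNA, in which fewer cells of a type and less RNA per cell cannot be told apart.

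Tight junctions hold neighbouring epithelial cells together just below their free surface. Occludin and tricellulin are membrane proteins of the junction strands, the zonula occludens proteins and cingulin are scaffolds that tie the strands to the actin cortex, and Crumbs proteins and the lethal giant larvae proteins mark the apical and the basolateral membrane in opposition to one another. Cargo reaches each side through sorting machinery that in epithelia includes the small GTPase RAB25 and the epithelial form of the AP-1 clathrin adaptor. Ducts of the pancreas are lined by such an epithelium.

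In SW1990, 8 of the 9 genes were called higher in GCTM-5 positive than in negative cells, as were 4.59% of all genes tested, by 3.99-fold for *MARVELD2* to 21.7-fold for *AP1M2*, and *TJP1* was the one that was not called. In CFPAC-1, none of the 9 was called, against 5.65% of all genes called higher and 4.13% called lower. Between the negative groups all 9 genes were called lower in SW1990 than in CFPAC-1, as were 15.0% of all genes, by 2.15-fold for *TJP1* to 30.5-fold for *RAB25*. Values below are RPKM, reads scaled to gene length in kilobases and to library size. Folds come from a limma fit to log2(RPKM + 0.1), which understates the change of low genes. The call rule for a gene was a change of over 2-fold and an unadjusted p under 0.01, and adjusted p-values are limma's with the Benjamini-Hochberg correction over the 16236 genes. The 3 values of a group are given in the order of replicates 1, 2 and 3.

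The labelled cell type was checked against markers. The 6 epithelial markers *EPCAM*, *CDH1*, *KRT7*, *KRT8*, *KRT18* and *KRT19* were present in every sample, with summed levels of 1595 to 1942 RPKM in negative SW1990, 4360 to 4841 in positive SW1990, 5411 to 6173 in negative CFPAC-1 and 6676 to 8162 in positive CFPAC-1. Leukocyte markers summed to at most 9.64 RPKM and acinar and islet markers to at most 0.295 RPKM in any sample. Fibroblast and mesenchymal markers summed to 1146 to 1314 RPKM and endothelial markers to 14.8 to 18.8 in negative SW1990, and both lists are described further below. Library totals, recovered from the values, ranged from 9969697 reads in replicate 3 of positive CFPAC-1 to 26159330 reads in replicate 1 of that group, and no pair of samples held identical values.

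The sequence just upstream of the transcription start is shown, as a description, for 5 of the 8 genes called in SW1990. Each of the 5 holds a motif that was searched for, and the *MARVELD2* window, which held none, is not shown. The windows are RefSeq's on GRCh38.p14, each with 250 bases upstream of a start and 50 downstream. Of the 9 genes, 8 had a window (all but *LLGL2*), and 13 windows were found in all. Capitals in the first 4 stretches mark the E2-box, CACCTG on either strand (CAGGTG when read on the other), the letters recognised by the ZEB and SNAIL families of repressors, and in the last they mark AACNNGTT, a loose form of the grainyhead motif. Each is written 5′ to 3′ on the gene's own strand and ends at the base before the start. The stretches are from chr19:6464021-6464270 (*CRB3*, plus strand), chr19:10587313-10587412 (*AP1M2*, minus strand), chr1:156061060-156061159 (*RAB25*, plus strand), chr5:69492447-69492546 (*OCLN*, plus strand) and chr1:151511287-151511386 (*CGN*, plus strand).
CRB3: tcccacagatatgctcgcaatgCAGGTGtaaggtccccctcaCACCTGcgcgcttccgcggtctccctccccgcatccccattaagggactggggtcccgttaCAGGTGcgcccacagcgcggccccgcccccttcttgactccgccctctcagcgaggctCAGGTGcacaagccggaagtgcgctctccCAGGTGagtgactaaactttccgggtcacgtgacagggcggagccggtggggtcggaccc
AP1M2: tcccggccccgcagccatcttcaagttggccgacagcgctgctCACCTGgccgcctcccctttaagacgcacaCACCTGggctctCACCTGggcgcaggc
RAB25: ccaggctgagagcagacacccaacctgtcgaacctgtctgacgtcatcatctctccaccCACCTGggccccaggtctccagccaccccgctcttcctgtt
OCLN: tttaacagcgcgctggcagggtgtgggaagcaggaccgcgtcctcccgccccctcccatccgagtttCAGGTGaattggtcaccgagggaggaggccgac
CGN: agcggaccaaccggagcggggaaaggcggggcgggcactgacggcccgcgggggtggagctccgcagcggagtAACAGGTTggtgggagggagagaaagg

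The *CRB3* window held 5 E2-boxes, which begin 228, 208, 147, 89 and 60 bases upstream of the start. The *AP1M2* window held 3, at 57, 27 and 15 bases upstream, and the *RAB25* window held 1 at 41 bases upstream and another at 38 bases downstream. Of the 13 windows 7 held an E2-box, and these belonged to 6 of the 8 genes. *CGN* and *MARVELD2*, both called in SW1990, had none in their windows, and *TJP1*, not called there, had 1 in 1 of its windows. Among all 35116 windows, 20.6% held an E2-box, 0.635% held 3 or more and 0.0940% held 5 or more. The full grainyhead motif AACCGGTT, which is its own reverse complement and is also a match to the loose form, was in none of the 13 windows and in 0.134% of all. AACNNGTT was found in *CGN* alone of the 8 genes, 27 bases upstream, and in 3.52% of all windows. These matches describe letters in a window, and no binding was measured.

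Occludin (*OCLN*) and tricellulin (*MARVELD2*) are related 4-pass membrane proteins of the tight junction, tricellulin being concentrated where 3 cells meet. Their genes are neighbours on GRCh37, at chr5:68788119-68853931 and chr5:68710892-68740157, both on the plus strand and 47962 bases apart. *OCLN* was at 0.488, 0.536 and 0.714 RPKM in negative SW1990 and at 3.49, 4.59 and 3.95 in positive SW1990. In CFPAC-1 it was at 7.02, 7.18 and 7.41 in negative and at 5.74, 7.04 and 5.06 in positive cells. The SW1990 groups were thus well apart while the CFPAC-1 groups overlapped, and both CFPAC-1 groups lay above positive SW1990. The change in SW1990 was 6.07-fold (log2 2.60, SE 0.17, adjusted p = 5.70e-07), and the estimate in CFPAC-1 was -0.29 (SE 0.17, adjusted p = 0.213, 95% interval -0.66 to 0.09).

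*MARVELD2* stood at 2.03, 1.41 and 2.38 RPKM in negative and 7.30, 7.80 and 8.60 in positive SW1990. Its CFPAC-1 values were 21.5, 21.1 and 20.4 in negative and 17.3, 21.7 and 15.4 in positive cells. Negative SW1990 cells were again the lowest group and the CFPAC-1 groups overlapped. The gain in SW1990 was 3.99-fold (log2 2.00, SE 0.17, adjusted p = 5.03e-06), the smallest among the 8 genes called. Of both membrane proteins, negative SW1990 cells thus kept unequal parts of the positive level, 14.5% for *OCLN* and 24.6% for *MARVELD2*. The ratio of *OCLN* to *MARVELD2* within a sample was 0.307 ± 0.070 (SD, n = 3) in negative and 0.508 ± 0.070 in positive SW1990, and 0.344 ± 0.018 and 0.329 ± 0.0042 in CFPAC-1. An unprocessed pseudogene of *OCLN* lies elsewhere on chromosome 5 and is not in the table. Processed pseudogenes of *CRB3* (chromosome 3) and *AP1M2* (chromosome X) are not in it either. How reads matching several places were counted is not given in the sources used here.

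**Figure D1:**
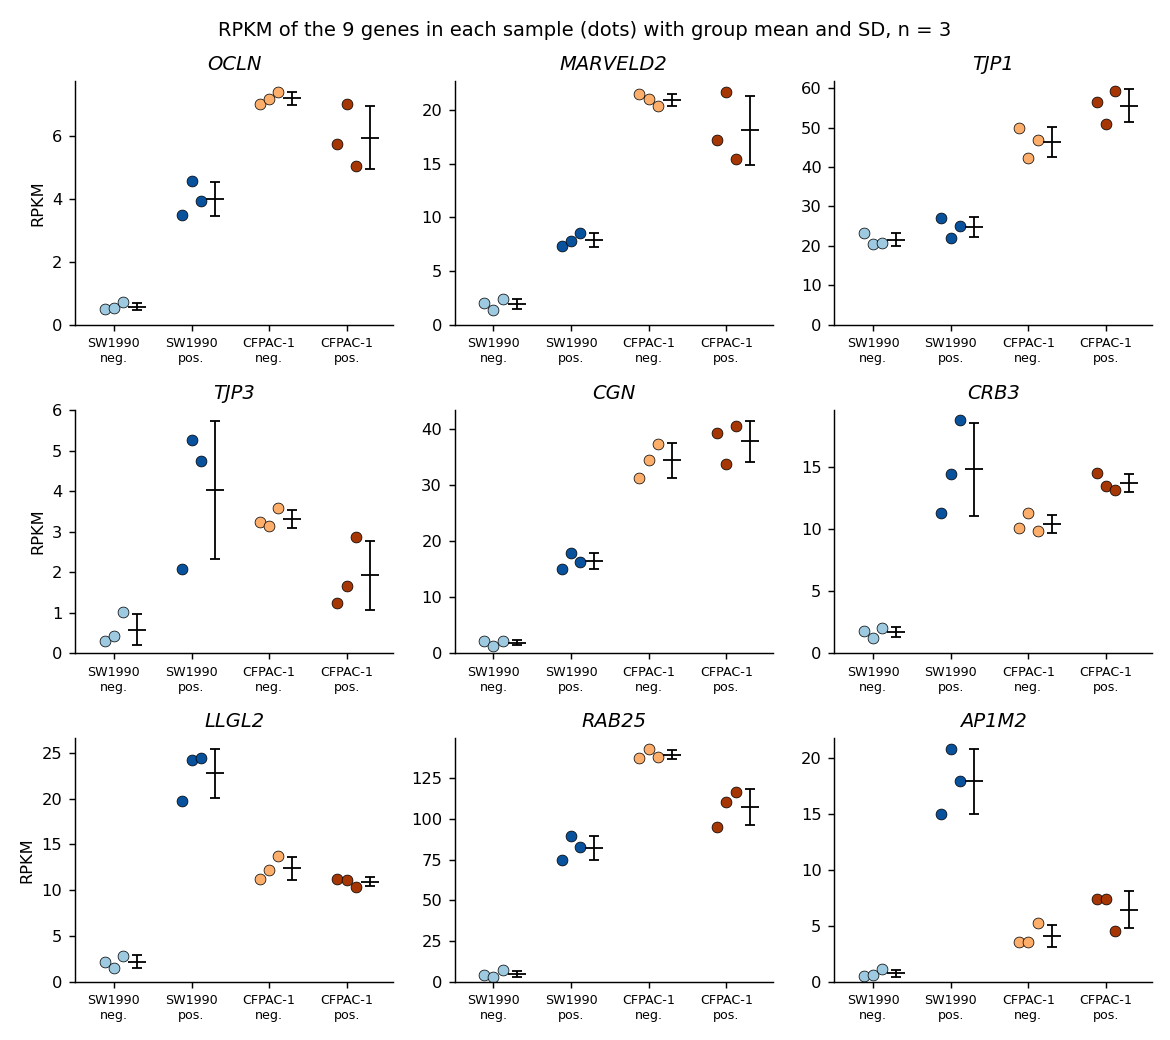
RPKM (vertical axis, linear from 0, a scale of its own in each panel) of the 9 genes in the 12 samples, as dots in replicate order for the 4 groups, with the group mean and SD (n = 3) beside them. In 8 panels the negative SW1990 samples lie at the bottom, clear of the positive SW1990 samples, and in the *TJP1* panel the SW1990 groups overlap at 20.6 to 27.0 RPKM.

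Among the scaffolds, *TJP1* (ZO-1), the broadly expressed founder of the zonula occludens family, was called in neither line. It measured 23.4, 20.6 and 20.7 RPKM in negative and 27.0, 22.1 and 25.2 in positive SW1990, groups that overlapped. Its levels in CFPAC-1 were 49.9, 42.4 and 46.8 in negative and 56.5, 51.0 and 59.3 in positive cells, where the groups did not overlap. The log2 fold changes were 0.20 in SW1990 (SE 0.10, adjusted p = 0.181, 95% interval -0.03 to 0.42) and 0.26 in CFPAC-1 (unadjusted p = 0.0247, adjusted p = 0.0626, 95% interval 0.04 to 0.48). With 2622 or more reads in each sample, it was the most deeply sampled of the 9 genes in negative SW1990 cells. Both intervals end below 1, so a 2-fold rise lies outside them.

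*TJP3* (ZO-3), a member of the same family found mainly in epithelia, was at 0.306, 0.421 and 1.03 RPKM in negative and 2.07, 5.25 and 4.76 in positive SW1990. In CFPAC-1 it was at 3.23, 3.15 and 3.58 in negative and at 1.24, 1.66 and 2.88 in positive cells. Every positive SW1990 sample was above every negative one, and in CFPAC-1 the order was the opposite, with no overlap. The SW1990 change was 6.19-fold (log2 2.63, SE 0.42, adjusted p = 0.000578). The CFPAC-1 estimate of -0.83 did not pass (SE 0.42, adjusted p = 0.145, 95% interval -1.76 to 0.09). This was the noisiest of the 9 genes, with 18 to 255 reads a sample. Its locus, chr19:3708360-3750811 (plus strand, GRCh37), shares 42 exonic bases with *APBA3* on the other strand, which was called in neither line.

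Cingulin (*CGN*), a cytoplasmic plaque protein that binds ZO proteins and actomyosin, was at 2.15, 1.36 and 2.15 RPKM in negative and 15.0, 17.8 and 16.2 in positive SW1990. Its CFPAC-1 values were the highest of any group, at 31.3, 34.4 and 37.3 in negative and 39.2, 33.7 and 40.5 in positive cells. The SW1990 groups were separate and the CFPAC-1 groups overlapped. The SW1990 change was 8.43-fold (log2 3.08, SE 0.16, adjusted p = 1.58e-07), against 0.14 in CFPAC-1 (SE 0.16, adjusted p = 0.535). The gene lies at chr1:151482986-151511168 on the plus strand, and *TJP1* at chr15:29991571-30261118 on the minus strand (GRCh37).

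Of the polarity genes, *CRB3* encodes the Crumbs protein of most epithelia, an organiser of the apical membrane. It was at 1.80, 1.24 and 2.04 RPKM in negative and 11.3, 14.4 and 18.8 in positive SW1990, and at 10.1, 11.3 and 9.89 in negative and 14.6, 13.5 and 13.2 in positive CFPAC-1. Positive samples were above negative ones in both lines with no overlap. Only the SW1990 change, 8.30-fold (log2 3.05, SE 0.19, adjusted p = 4.57e-07), passed the test, the CFPAC-1 estimate being 0.40 (SE 0.19, adjusted p = 0.129, 95% interval -0.02 to 0.82). The gene lies at chr19:6463788-6467232 (plus strand, GRCh37) and shares 15 exonic bases with *DENND1C* on the other strand. *DENND1C*, a guanine nucleotide exchange factor, rose 6.20-fold in SW1990 (log2 2.63, adjusted p = 1.27e-05), from a mean of 0.898 to 5.83 RPKM. Since the use of strand in the counting is not given in the sources used here, reads in the shared bases cannot be told apart.

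*LLGL2*, a lethal giant larvae protein of the basolateral domain, stood at 2.20, 1.45 and 2.85 RPKM in negative and 19.7, 24.2 and 24.4 in positive SW1990. In CFPAC-1 the values were 11.2, 12.2 and 13.7 in negative and 11.3, 11.1 and 10.4 in positive cells. Here positive SW1990 was the highest group of all, above both CFPAC-1 groups, which overlapped. The change was 10.4-fold in SW1990 (log2 3.38, SE 0.19, adjusted p = 2.52e-07) and -0.18 on the log2 scale in CFPAC-1 (SE 0.19, adjusted p = 0.507). It is encoded at chr17:73521161-73571290 on the plus strand (GRCh37).

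The genes of vesicle traffic showed the largest changes. *RAB25*, an epithelial GTPase of the RAB11 group that acts on apical recycling endosomes, was at 3.90, 3.21 and 7.14 RPKM in negative and 74.8, 89.6 and 82.6 in positive SW1990. In CFPAC-1 it reached 137, 143 and 138 in negative and 95.1, 111 and 117 in positive cells. The SW1990 change was 18.0-fold (log2 4.17, SE 0.22, adjusted p = 1.62e-07). In CFPAC-1 the negative samples were above the positive ones with no overlap, but the estimate of -0.38 did not pass (SE 0.22, adjusted p = 0.193, 95% interval -0.86 to 0.09). *RAB25* lies at chr1:156030951-156040295 on the plus strand (GRCh37).

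*AP1M2* encodes the µ subunit of AP-1B, the clathrin adaptor that sorts cargo to the basolateral membrane in epithelia. It was at 0.528, 0.638 and 1.10 RPKM in negative and 15.0, 20.8 and 17.9 in positive SW1990, and at 3.52, 3.58 and 5.21 in negative and 7.42, 7.39 and 4.53 in positive CFPAC-1. Positive SW1990 was far above the other groups, and the CFPAC-1 groups overlapped. The 21.7-fold change in SW1990 (log2 4.44, SE 0.27, adjusted p = 3.25e-07) was the largest of the 9 at this pseudocount, while at a pseudocount of 1 *AP1M2* was at 3.43 and *RAB25* at 3.91. It rested on 19 to 34 reads a sample in the negative cells. In CFPAC-1 the estimate was 0.63 (SE 0.27, unadjusted p = 0.0375, adjusted p = 0.0865, 95% interval 0.04 to 1.21). The locus is chr19:10683347-10697991 on the minus strand (GRCh37).

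Taking the 9 genes as a set in SW1990, 8 were called higher and 0 lower, against 4.59% of all tested genes called higher and 7.48% called lower. Their median log2 fold change was 3.05, and that of all genes was -0.04. The positive and negative samples did not overlap, with the positive ones higher, for the same 8 genes, against 17.9% of all genes. Compared with positive cells, negative SW1990 cells held 4.22% of the mean *AP1M2* level, 5.77% of *RAB25*, 9.51% of *LLGL2*, 11.4% of *CRB3*, 11.5% of *CGN* and 87.1% of *TJP1*. The genes of vesicle traffic thus had the smallest remainders and the broad scaffold the largest.

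In CFPAC-1, limma called 0 of the 9 genes, and voom on recovered reads also called 0. At an unadjusted p under 0.05 there were 2 of 9, *TJP1* and *AP1M2*, both estimated higher in positive cells. The full share of all genes at that level was not counted. With no fold threshold and an unadjusted p under 0.01 in limma, 0 of the 9 were called. By that rule 3208 of the 16236 genes were higher and 1923 lower. All of these also have an unadjusted p under 0.05, so the 2 of 9 is not read as a trait of these genes. By the call rule with its fold threshold, 5.65% of all genes were called higher and 4.13% lower, 917 and 671 genes as deposited. These became 724 genes higher and 858 lower when each sample was centred on its median. The median of the 9 log2 fold changes was -0.18, beside 0.05 for all genes. Samples did not overlap for *TJP1* and *CRB3*, with positive cells higher, nor for *TJP3* and *RAB25*, with positive cells lower, and overlapped for the other 5. Over all genes 28.1% did not overlap with positive cells higher and 20.4% with positive cells lower.

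**Figure D2:**
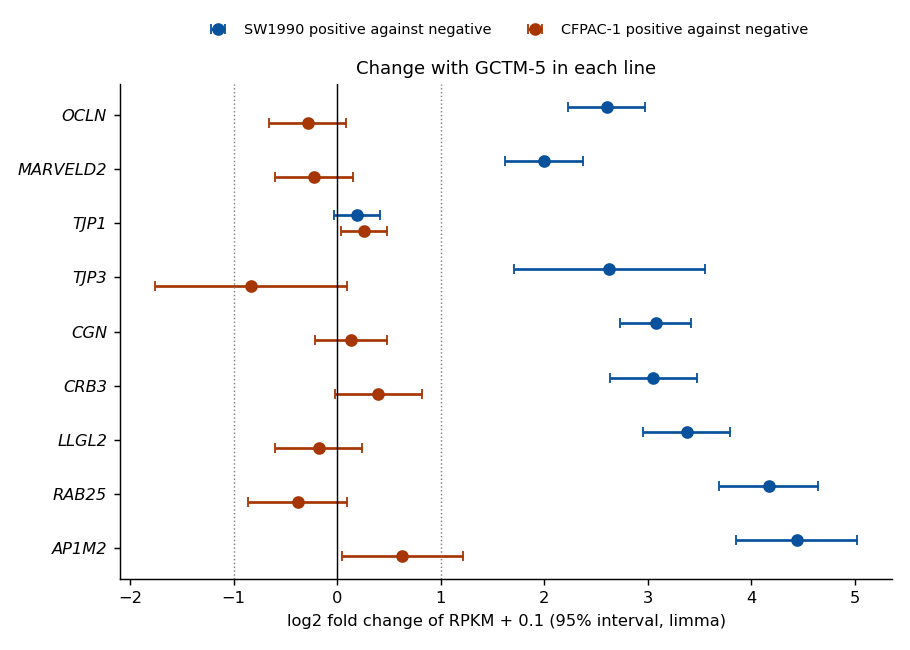
Log2 fold change of RPKM + 0.1 from GCTM-5 negative to positive cells (horizontal axis) for the 9 genes (vertical axis), with 95% intervals from limma, in SW1990 (blue) and CFPAC-1 (brown); dotted lines mark a 2-fold change. The SW1990 points of 8 genes lie between 2.00 and 4.44, the *TJP1* point lies at 0.20, and all CFPAC-1 points lie between -0.83 and 0.63.

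The difference between the lines was tested itself, as the change in SW1990 minus the change in CFPAC-1. It was larger in SW1990 for 8 of 9 genes at an adjusted p under 0.05, as it was for 9.16% of all genes (1487 genes larger and 2887 smaller, or 1987 and 1988 after centring on the median). On the log2 scale it ran from 2.22 for *MARVELD2* (adjusted p = 7.18e-05) to 4.55 for *RAB25* (adjusted p = 4.45e-06). For *TJP1* it was -0.07 (SE 0.14, adjusted p = 0.777, 95% interval -0.38 to 0.25).

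A direct comparison of the lines showed where the levels parted. Between the negative groups all 9 genes were called lower in SW1990, against 15.0% of all genes called lower and 21.9% higher. On the log2 scale the difference was -4.93 for *RAB25* (adjusted p = 2.64e-09), -4.14 for *CGN* (adjusted p = 8.19e-10), -3.44 for *OCLN* and -3.40 for *MARVELD2*. The remaining 5 lay between -2.57 for *CRB3* and -1.10 for *TJP1*. Median centring lowers the all-gene median of this comparison from 0.19 to 0.006, so each of these values is lower still against all genes. Over all genes the centred calls were 2880 higher and 2937 lower, against 3560 and 2433 as deposited.

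Between the positive groups the 9 genes divided. *LLGL2* (1.05, adjusted p = 0.000501) and *AP1M2* (1.48, adjusted p = 0.000439) were called higher in SW1990, against 14.8% of all genes. *MARVELD2* (-1.18), *TJP1* (-1.17) and *CGN* (-1.20) were called lower, with adjusted p-values of at most 9.04e-05, against 13.7% of all genes. The other 4 were not called, with estimates of -0.55 for *OCLN*, 1.00 for *TJP3*, 0.08 for *CRB3* and -0.38 for *RAB25*. These comparisons use the same samples as those within the lines and are not independent of them. The *LLGL2* call turns on the 2-fold threshold, since without replicate 2 or replicate 3 of positive SW1990 its estimate was 1.00 (0.999962, under the threshold) or 0.99. *TJP3* was called (1.41) without replicate 1 of that group, the sample with the lowest value.

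The order of the 9 genes by level per kilobase changed with the group. *TJP1* was the highest in negative SW1990, with a mean of 21.6 ± 1.60 RPKM (SD, n = 3) against 4.75 ± 2.10 for *RAB25*, the next. *RAB25* led in the other 3 groups, at 82.3 ± 7.44 in positive SW1990, 139.5 ± 2.83 in negative CFPAC-1 and 107 ± 11.1 in positive CFPAC-1. At the other end *OCLN* and *TJP3* were the lowest in both SW1990 groups, and their values overlapped in each. In negative SW1990 the values of *LLGL2*, *MARVELD2*, *CGN* and *CRB3*, at means of 2.17, 1.94, 1.89 and 1.70, overlapped as well.

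Paralogs of the same families put these changes in context. In negative SW1990 cells *AP1M1*, the µ subunit of the ubiquitous AP-1A adaptor, had a mean of 27.8 RPKM and in positive cells 16.9, a log2 change of -0.71 (adjusted p = 0.000263) that is under 2-fold. The ratio of *AP1M2* to *AP1M1* within a sample was 0.0273 ± 0.011 (SD, n = 3) in negative and 1.06 ± 0.20 in positive SW1990, so the epithelial subunit went from a small fraction to parity. In CFPAC-1 that ratio was 0.294 ± 0.086 and 0.419 ± 0.15, values that overlap. The ratio of *LLGL2* to *LLGL1* was 0.229 ± 0.058 in negative and 3.07 ± 0.36 in positive SW1990, and 3.10 ± 0.59 and 1.92 ± 0.13 in CFPAC-1. *LLGL1* itself, at means of 9.35 and 7.43 RPKM in negative and positive SW1990, was not called (log2 -0.32, adjusted p = 0.0745). Which *LLGL* paralog was the more abundant was thus reversed between the SW1990 fractions.

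The RAB11 genes, which serve recycling endosomes in most cell types, were called in neither line. *RAB11A* had log2 changes of 0.28 in SW1990 and -0.14 in CFPAC-1, and *RAB11B* of 0.04 and -0.09. The ratio of *RAB25* to *RAB11A* was 0.164 ± 0.061 in negative and 2.37 ± 0.088 in positive SW1990, and 2.05 ± 0.016 and 1.74 ± 0.12 in CFPAC-1. Between *TJP1* and *TJP3*, the ratio of *TJP3* to *TJP1* was 0.0277 ± 0.019 in negative and 0.168 ± 0.083 in positive SW1990, and 0.0719 ± 0.0061 and 0.0343 ± 0.013 in CFPAC-1.

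**Figure D3:**
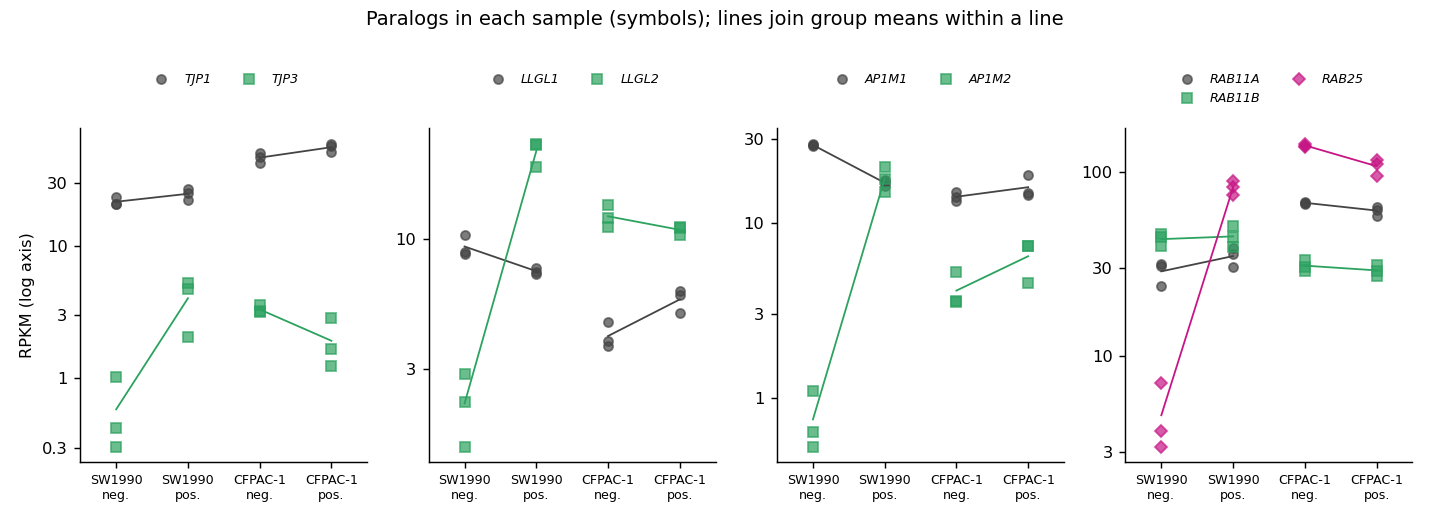
RPKM (vertical axis, log scale) of *TJP1* and *TJP3*, the *LLGL* genes, the AP-1 µ subunits and the RAB11 group in each sample of the 4 groups; symbols are samples and lines join group means within a cell line. The lines of *LLGL2* and *LLGL1*, and of *RAB25* and both RAB11 genes, cross between negative and positive SW1990, and *AP1M2* climbs to the level of *AP1M1*, while the order of paralogs is kept between the CFPAC-1 fractions.

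Other genes of the same pathways were taken from 6 lists. The list of tight junction partners held 20 genes, of which 19 were tested, and 5 rose and 1 fell in SW1990, with a median log2 fold change of 0.33. The 5 were *MARVELD3* (4.24, adjusted p = 1.00e-06), another membrane protein of the occludin family, *ILDR1* (3.38, adjusted p = 1.11e-05) and *LSR*, both angulins of tricellular contacts, and the adhesion proteins *F11R* and *CXADR*. In negative SW1990 *ILDR1* had a mean of 0.0783 RPKM on 2 to 8 reads a sample, under the pseudocount of 0.1, so the size of its change depends on that setting. *JAM3*, a junctional adhesion molecule also found on endothelial and mesenchymal cells, fell by 2.87 (adjusted p = 3.56e-07), from a mean of 5.57 to 0.678 RPKM. In CFPAC-1 only *AMOT* was called in this list (1.00, adjusted p = 0.0141), on the edge of the fold threshold. The angulins and *MARVELD3* had CFPAC-1 estimates of -0.62 to 0.69, none of which was called. Under 2-fold, limma's adjusted p in CFPAC-1 was under 0.05 for *CGNL1* (-0.86), *MAGI1* (-0.75), *F11R* (-0.44) and *ARHGEF2* (-0.35), all lower in positive cells. It was also under 0.05 for *JAM3* (0.68) and *AMOTL1* (0.46), both higher. *F11R* and *JAM3*, called in SW1990, thus went the other way in CFPAC-1. *JAM3* was near the pseudocount of 0.1 in that line, at means of 0.124 RPKM in negative and 0.258 in positive cells. It had 8 to 11 and 10 to 23 reads a sample there.

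Of 15 genes of the Crumbs and PAR complexes, 12 were tested and 2 rose in SW1990, *INADL* (PATJ; 1.51, adjusted p = 1.01e-05) and *PARD6B* (1.44, adjusted p = 0.000232). Under 2-fold, *PARD3B* was lower (-0.96) and *PRKCZ* higher (0.49) in positive SW1990, with limma's adjusted p under 0.05 for each. *MPP5* (PALS1), which links Crumbs to PATJ, had means of 29.2 and 32.2 RPKM in negative and positive SW1990 (log2 0.14, adjusted p = 0.491). None of the 11 tested genes of the Scribble module and the LKB1 kinase, of 13 listed, was called in either line, and their median in SW1990 was 0.27. *LLGL2* was thus called where its listed partners were not, although limma's adjusted p was under 0.05 for *SCRIB* (0.55), *DLG1* (0.35), *DLG3* (0.46), *LRRC1* (0.82) and *MARK2* (0.63), all under 2-fold.

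RAB11 recycling and apical delivery contributed 16 genes, all tested, of which 5 rose in SW1990 and 0 fell, with a median of 0.21. They were the transcytosis protein *MAL2* (3.05, adjusted p = 1.58e-07), the RAB11 effectors *RAB11FIP4* (3.04, adjusted p = 1.03e-05) and *RAB11FIP1*, the epithelial GTPase *RAB17* (2.37, adjusted p = 2.10e-07) and the motor *MYO5B*. Under 2-fold, limma gave an adjusted p under 0.05 to 3 further RAB11 effectors that were lower, *RAB11FIP2* (-0.94), *RAB11FIP3* (-0.85) and *RAB11FIP5* (-0.46), and to the syntaxin *STX3* (0.55). Of the 7 other AP-1 subunits *AP1S3* rose (1.87, adjusted p = 1.58e-07) and *AP1S2* fell by 1.72 (adjusted p = 2.59e-05). The order of these σ subunits was reversed, from means of 8.79 and 47.6 RPKM for *AP1S3* and *AP1S2* in negative SW1990 to 32.3 and 14.5 in positive cells. Of 11 genes of the apical cortex 10 were tested and 2 rose, *EPS8L1* (4.11, adjusted p = 8.66e-07) and *EPS8L2* (1.28, adjusted p = 2.65e-06), while *EZR* (0.99), *MSN* (-0.74) and *PODXL* (-0.78) had adjusted p-values under 0.05 below the fold threshold. In CFPAC-1 none of the genes tested in these 5 lists was called, but some changed by less than 2-fold with limma's adjusted p under 0.05. Higher in positive CFPAC-1 were 4 genes of the Scribble and LKB1 list, 3 of RAB11 recycling, 2 AP-1 subunits and 3 of the apical cortex. Lower were 2 genes of the Crumbs and PAR complexes and 1 of the apical cortex. The largest estimates either way were 0.76 for *SCRIB* and -0.60 for *PRKCI*. Read against the 4.59% of all genes that were called higher in SW1990, the share was above it in 5 lists and the medians of the 6 lists lay between 0.04 and 0.33.

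**Figure D4:**
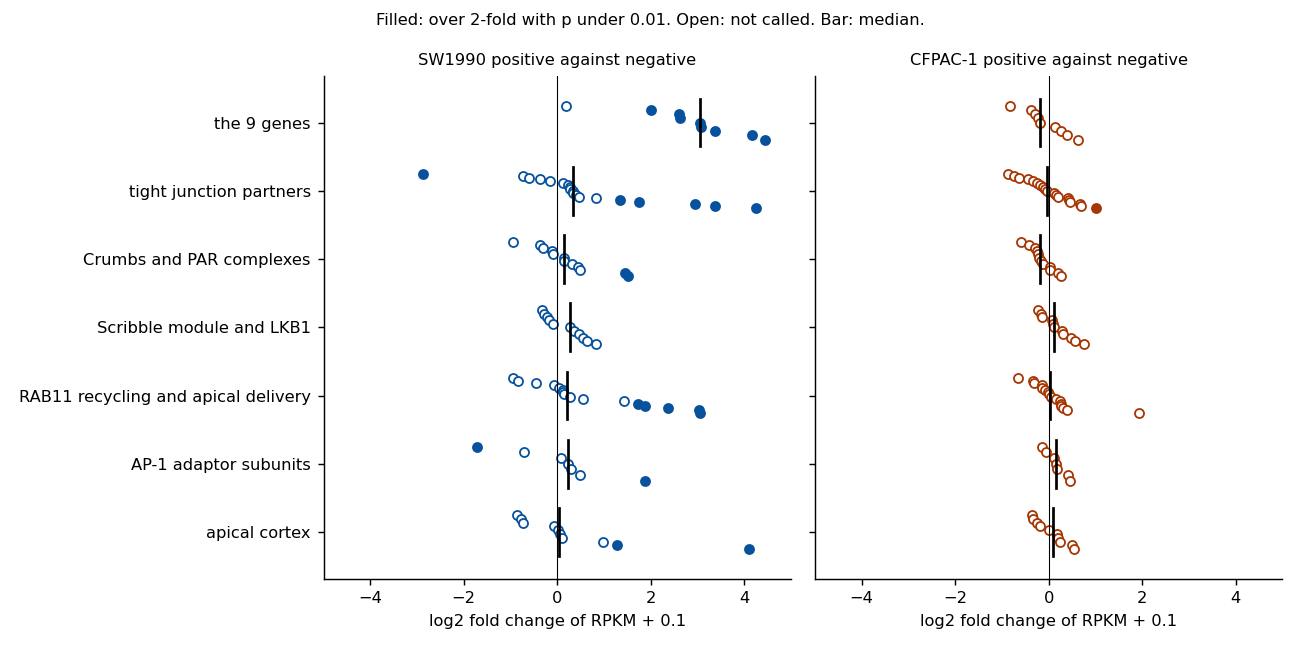
Log2 fold change of RPKM + 0.1 from GCTM-5 negative to positive cells (horizontal axis) for the 9 genes and the tested genes of 6 related lists (rows), in SW1990 (left) and CFPAC-1 (right); filled dots changed over 2-fold with p under 0.01 and bars are medians. The median of the 9 genes is at 3.05 in SW1990, where those of the 6 lists lie between 0.04 and 0.33, and in CFPAC-1 only *AMOT* is filled.

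Markers of cell state and of other cell types moved with the same contrast. In SW1990, 5 of the 6 epithelial markers were called higher in positive cells, against 4.59% of all genes. Of 9 fibroblast and mesenchymal markers 5 were tested and 4 were called lower, against 7.48% of all genes: *VIM*, *CDH2*, *PDGFRB* and *LUM*. The summed level of the list was 1146 to 1314 RPKM in negative and 173 to 356 in positive SW1990, against 542 to 735 and 416 to 585 in CFPAC-1, most of it from *VIM*. *LUM* went from a mean of 13.2 to 2.43 RPKM, *PDGFRB* from 1.76 to 0.0381, and *COL1A1* from 3.57 to 1.93 (log2 -0.86, adjusted p = 0.00640, under 2-fold). The other fibroblast genes *COL1A2*, *COL3A1*, *DCN* and *FAP* were at or near 0 in all groups, with means of at most 0.0795 RPKM. Endothelial markers summed to 14.8 to 18.8 RPKM in negative SW1990, nearly all from *CDH5*, and to at most 2.05 in the other samples, while *PECAM1* and *VWF* had means of at most 0.717. In CFPAC-1 none of the epithelial, mesenchymal or endothelial markers was called, although under 2-fold limma gave an adjusted p under 0.05 to *KRT7* (0.86), *KRT8* (0.70), *KRT18* (0.70) and *CDH2* (-0.73). *CD14*, the leukocyte marker that could be tested, fell in both lines, from a mean of 1.47 to 0.287 RPKM in SW1990 and from 9.23 to 3.19 in CFPAC-1, and the defining marker *PTPRC* had means of at most 0.0163. The part of these markers in the changes of the 9 genes was not tested.

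The negative SW1990 samples also differed among themselves. Replicate 3 had the highest value for 8 of the 9 genes and replicate 2 the lowest for 6, with median ratios to the group mean of 1.23 and 0.728. *EPCAM* was likewise highest in replicate 3 (27.2 RPKM) and lowest in replicate 2, and *CDH1* was highest in replicate 3 (16.6 RPKM). The summed epithelial markers, which are mostly keratins, were lowest in replicate 3 (1595 RPKM, against 1942 and 1892). In positive SW1990, replicate 1 was the lowest for 8 of the 9. Leaving out any of these samples left 8 genes called in SW1990.

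The genes whose profile was most like the mean scaled profile of the 9 were sought among the 13258 genes with a mean of at least 1 RPKM. Among the closest were *EPCAM*, an epithelial adhesion protein (Pearson r = 0.997 over 12 samples), *CLDN7*, a claudin (0.996), *TMEM30B* (0.995) and *ANKRD22* (0.994). *EPCAM* had means of 21.7, 176, 237 and 227 RPKM in negative SW1990, positive SW1990, negative CFPAC-1 and positive CFPAC-1, and *CLDN7* of 11.1, 87.8, 107 and 116. The points share libraries, and the 3 negative SW1990 samples lie apart from the other 9. Over those 9 samples alone the values for these 4 genes were 0.697 to 0.927, and among the 9 genes themselves they ran from -0.641 for *AP1M2* to 0.818 for *OCLN*. Without the negative SW1990 samples the likeness was therefore lower for each of the 4.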

How the data were processed

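The deposited table gives RPKM per gene, which the authors made with QuasR from reads aligned to hg19 (GRCh37). The annotation, strand use and multi-mapping rule of the counting, and the version of QuasR, are not given in the sources used here. The labels name a strand-specific SureSelect kit and the study's methods a TruSeq kit. Samples were grouped by line and gate from their labels.

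Genes with a mean of at least 0.1 RPKM over the 12 samples entered the fit, 16236 of 23346. A pseudocount of 0.1 was added to RPKM before taking log2, and limma 3.58.1 was run under R 4.3.3 on these values (4 group means, eBayes with an intensity trend, 2-sided). Calls within and between lines needed over 2-fold and an unadjusted p under 0.01, and the difference between lines an adjusted p under 0.05. The study's TCC works on counts and was not used. Library totals and reads were recovered from the values: all 19654 genes above 0 gave whole reads within 0.01 of a read. Both steps were tested on simulated data. Limits from read numbers cover counting error only, since reads without molecular identifiers are not independent molecules.

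The 9 genes, the lists and the tests were chosen with earlier results of these data known. Named beside the 9 genes were paralogs, up to 3 genes of each list with the largest change in a line (others called are named without values), the 5 genes of most similar profile, and the markers, of which some items are not reported here. *DENND1C*, *APBA3* and the listed genes that were not called were named after their values were seen. Gene positions are from GENCODE 44 mapped to GRCh37, and older symbols were matched through RefSeq synonyms. Promoters are RefSeq windows on GRCh38.p14. Protein sequences were not analysed here. Alternatives were 2 other pseudocounts, 2 other filters, centring, quantile normalization, no intensity trend, an adjusted p, no fold threshold, voom on recovered reads, a replicate block, each line alone, and the omission of 1 sample at a time (12 fits), 24 in all. Other steps ran in Python 3.11.15 (pandas 2.3.3, numpy 2.4.6, matplotlib 3.10.9).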

Additional observations from a re-analysis of the deposited data

Results flagged for a closer look

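The change with GCTM-5 was larger in SW1990 for 8 of the 9 genes, as for 9.16% of all genes, by limma's test of the difference itself with the Benjamini-Hochberg correction over all genes. The log2 change in SW1990 minus that in CFPAC-1 was 2.89 for *OCLN*, 2.22 for *MARVELD2*, 3.46 for *TJP3*, 2.94 for *CGN*, 2.66 for *CRB3*, 3.55 for *LLGL2*, 4.55 for *RAB25* and 3.81 for *AP1M2*. The adjusted p-values ran from 4.45e-06 for *RAB25* to 0.00135 for *TJP3*. All 3 positive samples were above all 3 negative samples in SW1990 for each of these genes, as for 17.9% of all genes. Groups of 3 samples are too small for a check of single outlying samples.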

How the results depend on the processing

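The number of the 9 genes called was 8 in SW1990, 0 in CFPAC-1, 8 for the difference between lines and 9 between the negative groups under every alternative that gave a value (24, 24, 21 and 22 of them), and 4 to 6 between the positive groups, against 5. By gene, direction and call were kept in 216 of 216 cases in SW1990, 216 of 216 in CFPAC-1, 186 of 189 for the difference, 198 of 198 between negative and 190 of 198 between positive groups. The *TJP1* difference of -0.07 became 0.083 after centring on the median and 0.039 after quantile normalization, and ran from -0.13 to 0.015 with samples left out, turning positive without replicate 2 of positive SW1990. It was called in none of them. The *CRB3* estimate between positive groups, 0.08, ran from -0.10 to 0.26 with samples left out, the lowest without replicate 3 of positive SW1990. Between the positive groups *OCLN* was called with no fold threshold (-0.55), *TJP3* with voom (1.16), and *LLGL2* was not called at a pseudocount of 1 (0.99) or after quantile normalization (0.99). The cause was not tested.

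With a replicate block the counts of the 9 genes were 8, 0 and 8 in SW1990, CFPAC-1 and the difference, and calls over all genes moved from 1961 to 1961, 1588 to 1587 and 4374 to 4130. Deviations of same-numbered samples correlated from -0.059 to 0.18, over 0.1 in 2 of 6 pairs, and 3 of 12 samples correlated best with their own number, so the numbers were not taken to pair samples. The block gives no direct comparison of the negative or of the positive groups, and the fit of each line alone gives values within a line only. The low reads in negative SW1990 (18 to 52 for *TJP3*, 19 to 34 for *AP1M2*) limit the precision of those folds, and a pseudocount of 1 gave the smallest estimates for low genes, such as 1.66 for *OCLN* and 1.63 for *TJP3* in SW1990.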
